A study of Mus musculus with 4 samples.

Results

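Cycling fibroblasts are fibroblasts caught while replicating their DNA or dividing. Here they are the cells that the authors' deposited annotation calls by that name, and all of them sit in a single deposited cluster, number 6. The fibroblast cells counted here pool the authors' fibroblast classes with their Myofib-like, SMC (1530 cells), EMT-like (5141) and Unknown Mesenchymal (992) classes. The authors' mesothelial class is left out. Pooled cells outside the cycling class are called non-cycling fibroblasts. There are 2543 cycling fibroblasts among 36116 fibroblast cells and 45936 cells in all. They number 1100 and 1028 in the control libraries and 214 and 201 in the knockdown libraries. They come from mouse alveolospheres, organoid co-cultures of wildtype alveolar type 2 (AT2) cells, the surfactant-making epithelial cells of the alveolus, with lung fibroblasts that express PDGFRa. The control group is labelled wildtype throughout. The knockdown group combines wildtype AT2 cells with fibroblasts carrying a PDGFRa-specific knockdown of YAP and TAZ, the paired co-activators at the end of the Hippo pathway. Doxycycline was given at 3 µg/ml to both groups from day 7, with collection on day 14, which makes the drug common to them, and each group has 2 libraries. They are given as biological replicates, with neither animals nor cultures named. The p-values below therefore rest on library-to-library spread, part of which may be technical. The labels tie the knockdown to PDGFRa-expressing cells and do not say by what construct.

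A cell that enters the cycle passes through a programme of gene waves. D-type cyclins with CDK4 and CDK6 release E2F factors from the retinoblastoma family in G1, E2F then switches on the replication genes of S phase, and the MuvB complex with B-MYB and FOXM1 switches on the mitotic genes of G2 and M phase. YAP and TAZ are known to drive many cycle genes through TEAD factors, and fibroblasts of the lung divide during growth and repair. Because the class was made by clustering these same cells, its cell cycle genes are a description of how the class was drawn and carry no test against other fibroblasts. Comparisons of knockdown with control run over the 4 libraries.

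Depth and sample facts that touch the class were as follows. The class held 6728011 and 6883002 unique molecular identifiers (UMIs, counts of single RNA molecules) in the control libraries and 1979911 and 1939340 in the knockdown libraries, so a knockdown value rests on fewer counts. Among the 2543 cells, 115 shared a barcode sequence with a cell of another library, 8 of them with another cycling fibroblast. Knockdown library 2 stood apart: 21.9% of its cycling fibroblasts had a deposited doublet enrichment, a ratio made from open chromatin data, above 2, against 1.64%, 2.14% and 0.935% in control 1, control 2 and knockdown 1. Its non-cycling fibroblasts showed the same pattern, 12.8% against 0.740%, 0.660% and 1.03%. Leaving out all cells above that ratio gave 296 changed genes where 287 were called with them, and 258 genes were called both ways.

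The name of the class was first set beside its markers. Top2a (topoisomerase II alpha, which untangles replicated DNA) was at 315 and 352 CPM, the count of a gene scaled to the same total of UMIs in each library, in the control and 364 and 494 CPM in the knockdown cycling fibroblasts. Non-cycling fibroblasts of the same libraries read 26.5, 24.4, 11.4 and 10.5 CPM. Mki67, the Ki-67 protein that coats mitotic chromosomes, was at 144, 166, 159.6 and 193 CPM in the class in the same library order, against 12.1, 12.8, 5.39 and 3.98 CPM outside it. The kinetochore protein gene Cenpf read 121, 150.2, 112 and 168 CPM inside and 6.77, 8.16, 2.63 and 2.59 CPM outside. Neil3, a DNA glycosylase of replicating cells, read 87.2, 76.9, 89.4 and 104 CPM inside and 2.19, 2.21, 0.7996 and 0.7902 CPM outside. All 4 markers were higher in the class in 4 of 4 libraries, and the fibroblast genes stayed high in it: the summed level of 9 fibroblast markers was 9232, 11991, 9536 and 9069 CPM, against 11016, 13583, 10405 and 10612 CPM in non-cycling fibroblasts. In AT2 cells (deposited cluster 9) the sum of the fibroblast markers was 1501, 1309, 1119.5 and 784 CPM. Because the class was clustered on these cells, its cycling markers describe how it was drawn and do not test the label.

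**Figure D1:**
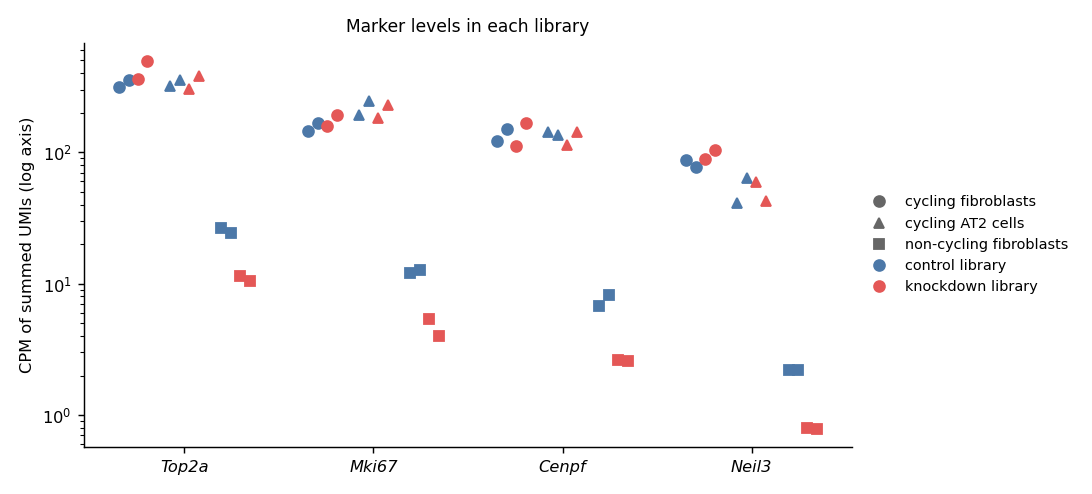
CPM of the 4 marker genes on a log axis, 1 point per library, in cycling fibroblasts (circles), cycling AT2 cells (triangles) and non-cycling fibroblasts (squares), blue for control and red for knockdown libraries. Levels inside the class lie close together in all 4 libraries, while in non-cycling fibroblasts the knockdown libraries lie below the controls, for Top2a at 11.4 and 10.5 against 26.5 and 24.4 CPM.

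The start regions of these marker genes, and of 2 replication genes that come up again below, are shown to let a reader see which of them carry letters that cell cycle factors are known to read. Each line gives the 150 bases before the RefSeq start (GRCm38.p6), 5′ to 3′ in the direction of the gene. Capitals mark matches, on either strand, to the cell cycle homology region spelled TTTGAA with the variant spelling TTCGAA, known as a contact of the MuvB complex, to the CCAAT box, read by NF-Y, and to an E2F site. The E2F site was searched in the spelling TTCCCGC with the variant spelling TTCGCGC, the further spelling TTGCCGC and the last spelling TTGGCGC. The variant TTCGAA reads the same on both strands, and no motif contains another.
Top2a, chr11:99024190-99024339, minus strand: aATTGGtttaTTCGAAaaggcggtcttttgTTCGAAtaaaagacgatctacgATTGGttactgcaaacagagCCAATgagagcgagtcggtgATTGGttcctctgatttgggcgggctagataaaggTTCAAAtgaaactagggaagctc
Mki67, chr7:135716380-135716529, minus strand: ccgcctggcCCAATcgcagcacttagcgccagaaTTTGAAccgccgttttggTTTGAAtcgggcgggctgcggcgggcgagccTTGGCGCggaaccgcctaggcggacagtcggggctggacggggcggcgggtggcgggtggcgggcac
Cenpf, chr1:189688087-189688236, minus strand: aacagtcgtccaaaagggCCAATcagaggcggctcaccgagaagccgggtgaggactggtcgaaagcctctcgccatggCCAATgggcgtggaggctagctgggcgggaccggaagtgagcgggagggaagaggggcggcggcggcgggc
Neil3, chr8:53639066-53639215, minus strand: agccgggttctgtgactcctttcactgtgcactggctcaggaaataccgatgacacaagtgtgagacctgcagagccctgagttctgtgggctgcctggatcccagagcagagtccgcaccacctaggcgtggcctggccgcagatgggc
Mcm2, chr6:88898781-88898930, minus strand: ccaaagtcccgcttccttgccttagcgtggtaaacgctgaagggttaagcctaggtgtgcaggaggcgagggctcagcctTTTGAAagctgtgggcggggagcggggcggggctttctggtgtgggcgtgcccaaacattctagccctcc
Pcna, chr2:132253181-132253330, minus strand: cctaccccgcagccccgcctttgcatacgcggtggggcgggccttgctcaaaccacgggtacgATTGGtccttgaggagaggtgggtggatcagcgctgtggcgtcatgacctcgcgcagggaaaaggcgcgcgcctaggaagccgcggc
The Top2a window holds CCAAT boxes and homology regions, Mki67 has all 3 kinds of match, Cenpf has CCAAT boxes alone, Mcm2 a homology region, Pcna a CCAAT box, and the Neil3 window has none of these letters. Over all 32851 promoter entries, 9.70% of windows held a homology region, 24.5% a CCAAT box, 5.47% an E2F site and 2.43% both of the first pair. Among 51 entries of 46 matched genes of the 52-gene G2/M phase list the shares were 37.3%, 70.6%, 11.8% and 33.3%. The 33 entries of 30 matched genes of the 42-gene S phase list gave 15.2%, 60.6%, 45.5% and 6.06%. These are matches of letters, not measured binding.

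Compared with non-cycling fibroblasts, all as a description, the class was set apart upward rather than downward. Of 7051 genes at 20 normalised CPM or more in either class (CPM further scaled by edgeR's TMM factors), 296 were at least 2-fold higher in cycling fibroblasts in 4 of 4 libraries, and 163 of these belonged to the cell cycle lists, which hold 238 genes. Only 4 genes were at least 2-fold lower in 4 of 4 libraries. The lists differed by role in their median log2 ratio of cycling to non-cycling level. Cytokinesis genes had a median of 3.91, spindle and kinesin genes 3.86, mitotic kinases and checkpoint genes 3.24 and kinetochore genes 3.21. Condensin and cohesin genes had 3.04, nucleotide synthesis genes 2.49 and replication fork and licensing genes 2.13. E2F and MuvB factors had a median of 1.24, and inhibitors of CDKs with the pocket proteins 0.0083.

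Cyclins of different phases differed in their ratio. Ccnd1, a G1 cyclin, had a log2 ratio of 0.06 (range over libraries -0.10 to 0.43). Ccnd2 and Ccnd3, also G1 cyclins, were lower in the class in 4 of 4 libraries, at -0.82 and -0.37. Ccne1 and Ccne2, which act at the entry to S phase, were at 1.95 and 3.19. Ccna2, of S and G2 phase, was at 3.28, and the mitotic Ccnb1 at 3.55. Cdk1, the mitotic kinase, was at 3.29, Cdk2 at 1.18, and the G1 kinases Cdk4 and Cdk6 at 0.24 and -0.05. Cdkn1a, the p53 target p21, was at 0.13 and Cdkn1b (p27) at 0.06. The INK4 inhibitors Cdkn2c and Cdkn2d were higher in the class in 4 of 4 libraries, at 1.04 to 1.59 and 1.13 to 1.66. Other INK4 genes did not follow them. Cdkn2b was lower in the class in 4 of 4 libraries (15.5, 16.6, 17.7 and 22.2 against 17.4, 19.3, 23.7 and 27.5 CPM). Cdkn2a differed little, at 28.8, 36.6, 31.8 and 44.3 against 28.8, 36.7, 36.7 and 43.2 CPM. Of the factors, the E2F repressors E2f7 and E2f8 were at 4.08 and 3.54, the activator E2f1 at 0.97, Foxm1 at 3.12 and the B-MYB gene Mybl2 at 2.45.

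Outside the cell cycle lists, the highest ratios among genes at 50 normalised CPM or more belonged to Shcbp1, Hist1h2ap, Cep128, Pclaf, Lockd, Cip2a, Ulbp1, Stil, Mms22l, Lmnb1, Stmn1 and H2afx. Their log2 ratios ran from 2.31 for the histone variant gene H2afx to 4.28 for Shcbp1, and several are known companions of replication or mitosis. Hist1h2ap is a histone gene with near-identical copies, so its level is uncertain. Pclaf, the PCNA-binding factor, was at 3.46, the centriole gene Stil at 2.91 and the lamin gene Lmnb1 at 2.61. The lowest ratios belonged to Tcp11l2, Fmo2, Wnt4, Gas6, Fbxo32, Nwd2, Abi3bp, Kdm7a, Cxcl5, Rgs2, Grina and Serpine2. Fmo2, a flavin monooxygenase, was at -1.54, and Gas6, the growth-arrest-specific ligand of the TAM receptors, at -1.45. Fbxo32, the atrogin-1 ubiquitin ligase, was at -1.20, and Abi3bp, a matrix protein gene, at -1.09. Wnt4, a ligand named in the series title, was at -1.496, and lower in the class than in the pooled non-cycling fibroblasts in each library (-1.48, -1.29, -1.38 and -1.69). It was not lower than in Inflammatory Fibroblasts-1, as given below. Fibroblast genes differed less: the collagen gene Col1a1 was at -0.04 and Pdgfra at -0.30.

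Outside cycle genes, which class lay closest to cycling fibroblasts depended on the measure. The first measure was the root mean square log2 difference over 7794 genes in the controls and 7776 in the knockdowns, leaving out the cycle lists and genes at least 2-fold higher in the class. In the controls it was 0.338 to Inflammatory Fibroblasts-1, 0.383 to Fibroblasts and 0.453 to Inflammatory Fibroblasts-2. Knockdown libraries gave 0.429 to Fibroblasts, 0.484 to Inflammatory Fibroblasts-1 and 0.547 to the EMT-like class. Spearman's rho between the class and these nearest classes was 0.966 in the controls and 0.945 in the knockdowns, across genes of pooled libraries. After each gene was centred on its mean over the non-cycling classes, rho was highest for Inflammatory Fibroblasts-2 in the controls (0.315, against 0.195 for Inflammatory Fibroblasts-1) and for Inflammatory Fibroblasts-1 in the knockdowns (0.179, against 0.159 for Inflammatory Fibroblasts-2 and 0.143 for Fibroblasts). The profiles share libraries, and sizes of classes differ, so these rank likeness only.

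Cycling fibroblasts carried more RNA and more open chromatin fragments than other fibroblasts. Median UMIs per cell were 5358.5, 5924.5, 8186.5 and 8455 in control 1, control 2, knockdown 1 and knockdown 2, which is 1.47, 1.51, 1.78 and 1.47 times the non-cycling median of the same library. Median ATAC fragments, which count open chromatin per cell, were 12266, 14050, 19796 and 35665, at 1.42, 1.39, 1.35 and 1.51 times. The mitochondrial share was also higher, with medians of 26.6%, 24.4%, 29.2% and 23.0% at 1.11, 1.11, 1.13 and 1.23 times. All 3 measures were higher in the class than in this pool in 4 of 4 libraries. Single classes came close to the class or above it. Inflammatory Fibroblasts-2 had median UMIs of 4983.5, 5453, 7301 and 8900, above the cycling class in knockdown 2. Myo1f+ Fibroblasts had mitochondrial medians of 26.57%, 24.49%, 29.75% and 20.34%, against 26.56%, 24.38%, 29.16% and 22.98% in the cycling class. The class came from clustering these cells, so these measures may not be independent of it.

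Fewer fibroblasts of the knockdown libraries were in the cycling class. They made up 9.14% of 12041 and 8.95% of 11480 fibroblast cells in the controls, and 2.86% of 7472 and 3.92% of 5123 in the knockdowns. The groups did not overlap, and the difference of means was -5.65 percentage points (9.05 ± 0.128 against 3.39 ± 0.749, SD, n = 2 in each). In an exact permutation test, on both sides, p was 0.333, the smallest that 2 against 2 libraries can give. Exact binomial intervals, for counting error only, were 8.63 to 9.66%, 8.44 to 9.49%, 2.50 to 3.27% and 3.41 to 4.49%. Other classes in the denominator also differed in size. The authors' Wnt4+ class held 7 and 32 control and 1362 and 971 knockdown cells, and their SMC class 724 and 753 control and 48 and 5 knockdown cells. As a share of all cells, cycling fibroblasts were 7.33% and 7.40% in the controls and 2.03% and 3.09% in the knockdowns.

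A count of marker-positive cells that does not use the class gave the same order. After each cell was thinned to 2000 UMIs, to remove the difference in depth, 11.05% and 11.03% of control fibroblasts and 5.00% and 5.14% of knockdown fibroblasts had a UMI of Mki67 or Top2a, with shallower cells left out. The groups again did not overlap (difference of means -5.97 percentage points, exact permutation p = 0.333). Inside the class 58.1%, 62.1%, 67.1% and 67.8% of thinned cells had such a UMI. The class was clustered on these cells, so these shares are partly fixed by how it was drawn. Without thinning the shares were 84.8%, 89.7%, 94.9% and 96.0%, and 79, 56, 7 and 3 cells of the class had a UMI of none of the 4 markers. In non-cycling fibroblasts the thinned share was 5.99% and 5.76% in the controls and 3.11% and 2.58% in the knockdowns (12.01%, 11.7%, 7.38% and 7.40% without thinning, at median depths of 3649, 3912.5, 4610.5 and 5745 UMIs). Among classes with at least 50 cells in each control library, Unknown Mesenchymal had the least in the controls. It read 1.92% and 2.67% there (1 of 52 and 2 of 75 cells) and 5.62% and 3.02% in the knockdowns. Exact counting intervals of the control values were wide, 0.0487 to 10.3% and 0.325 to 9.30%. Free RNA gives such UMIs in droplets of any cell, and how much of the non-cycling share it made up was not tested.

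**Figure D2:**
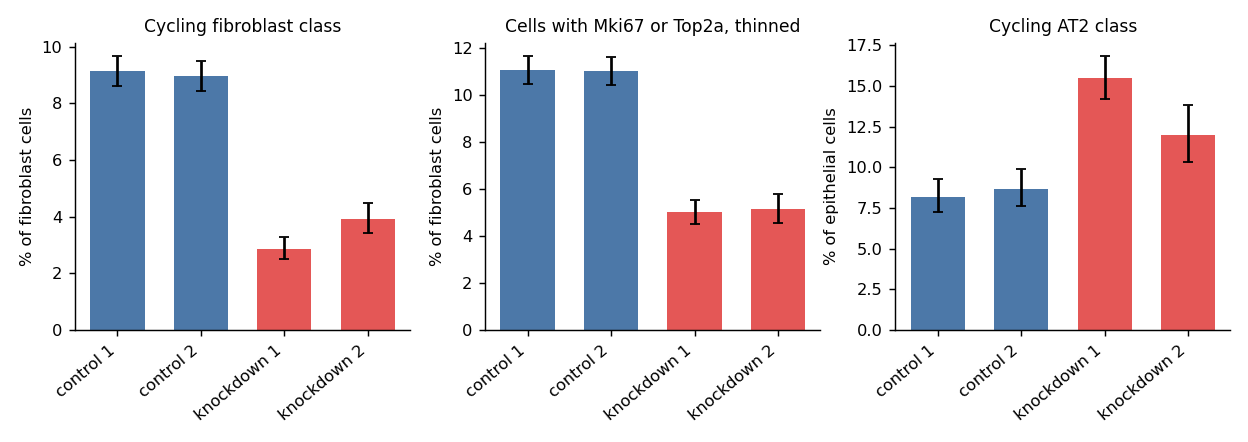
Bars give, for each library, the cycling class as a percent of fibroblasts, thinned cells with a Mki67 or Top2a UMI as a percent of fibroblasts, and the cycling AT2 class as a percent of epithelial cells, with exact 95% binomial intervals for counting error. Both fibroblast measures are lower in the 2 knockdown libraries, and the cycling AT2 share, at 15.5% and 11.97%, is above its 8.20% and 8.69% in the controls.

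The cycling epithelial cells of the same cultures moved the other way. Cycling AT2 cells made up 8.20% and 8.69% of epithelial cells in the controls and 15.5% and 11.97% in the knockdowns, or 5.29 percentage points more on average (p = 0.333 in the exact permutation test). Within their own libraries, then, the share of cycling cells was lower with the knockdown among fibroblasts and higher among epithelial cells. The difference between these changes was not tested.

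The mix of phases inside the class was similar in all libraries. Thinned to 3000 UMIs per cell, S phase genes took 31.4% and 29.3% of the UMIs of the S and G2/M phase lists in the controls and 32.3% and 31.1% in the knockdowns. The difference of 1.35 percentage points (30.4 ± 1.504 against 31.7 ± 0.833, SD, n = 2) was smaller than the SD of the controls, with an exact permutation p of 0.667. Cells under 3000 UMIs were left out, 108, 73, 2 and 4 of them. UMIs of S phase genes per thinned cell were 5.94, 5.99, 6.80 and 8.05, and those of G2/M genes 12.97, 14.5, 14.3 and 17.8. Knockdown library 2 was highest in both. Cycling AT2 cells had S shares of 28.0%, 29.1%, 28.9% and 28.6%.

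Open chromatin fragments of the same cell were set beside its phase genes. The cluster numbers equal those of a column whose name refers to RNA neighbours, per the file headers, but how the clusters were made is not stated. Cells with an S share of 25% or less, the more G2/M-like end, made up 41.5%, 46.4%, 40.1% and 40.1% of the thinned class. Their median ATAC fragments were 14083, 15394.5, 23176 and 40820.5, against 12154, 13854.5, 17724 and 33674 in cells with an S share between 25 and 75%. The more G2/M-like cells had the higher count of this pair in 4 of 4 libraries. RNA depth did not order them the same way in each library: median UMIs were 5948.5, 6302, 9142 and 8418 at the low S end against 5464, 6086.5, 7752 and 8716 between. Few cells had an S share of 75% or more (11, 12, 3 and 5), and their median ATAC fragments were 13032, 14413, 5757 and 31309, above the cells between the limits in both controls and below them in both knockdowns. These ranges cut a continuous score and are not cell types.

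**Figure D3:**
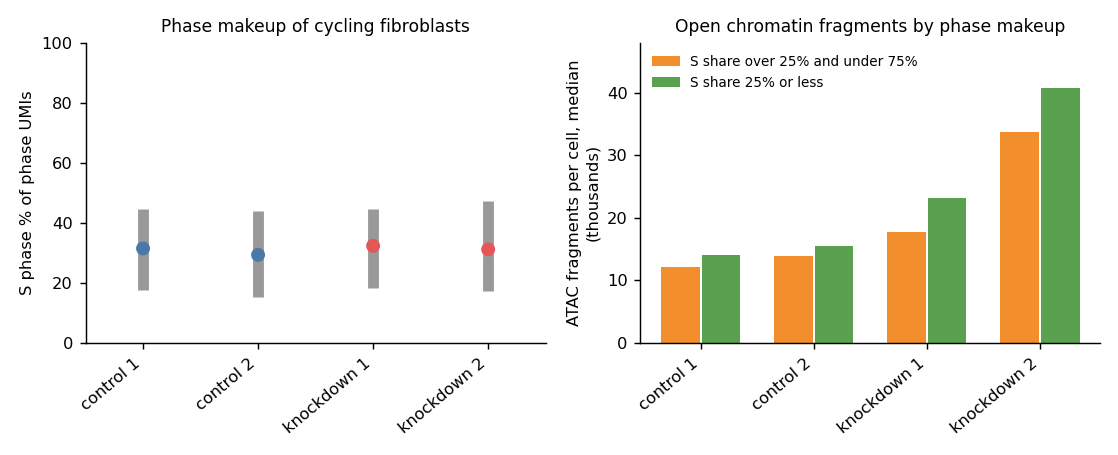
Left, S phase genes as a percent of phase UMIs in cycling fibroblasts of each library (points, all cells summed; bars, from the lower to the upper quartile of single cells). Right, median ATAC fragments per cell for cells with a low S share (green) and between the limits (orange); the green bar is the higher in each library, for knockdown 2 at 40820.5 against 33674.

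The targeted genes were lower in knockdown cycling fibroblasts, though neither passed the main test, which has no term for replicate. Both passed once a replicate block was added, for which the labels give only shared numbers. Yap1 (ENSMUSG00000053110, chromosome 9, 7931999 to 8004596, minus strand) was at 57.5 and 53.7 normalised CPM in the controls and 38.1 and 31.3 in the knockdowns, with no overlap. Its log2 fold change was -0.68 ± 0.19 (SE), at an adjusted p of 0.0698 by edgeR's quasi-likelihood test, and it passed without control replicate 2. Wwtr1, which encodes TAZ (ENSMUSG00000027803, chromosome 3, 57455649 to 57575910, minus strand), was at 213, 194, 178 and 126, also without overlap (log2 fold change -0.42 ± 0.20, adjusted p = 0.311). In non-cycling fibroblasts, with more cells, the log2 fold change was -0.73 ± 0.11 for Yap1 (adjusted p = 0.008204) and -0.39 ± 0.13 for Wwtr1 (adjusted p = 0.0981). The difference between classes was 0.08 ± 0.15 for Yap1 (adjusted p = 0.909) and -0.01 ± 0.09 for Wwtr1 (adjusted p = 0.987). A lower Wwtr1 level was not particular to fibroblasts. Cycling AT2 cells, labelled wildtype in both groups, read 226, 216, 162 and 132 CPM for Wwtr1, also without overlap. For Yap1 they read 81.7, 67.7, 68.6 and 67.5 CPM, with overlapping groups. The part of shared RNA between droplets in these values was not tested.

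Across 12418 genes tested in cycling fibroblasts, 287 changed with the knockdown at an adjusted p under 0.05, or 2.31%. Of these, 143 rose (1.15%) and 144 fell (1.16%), 172 of them at least 2-fold, and the median log2 fold change of all genes was 0.0053. The count depends on both knockdown libraries. Without knockdown replicate 1 edgeR called 2 genes (1369 at an unadjusted p under 0.05), and without knockdown replicate 2 it called 0 (922 at an unadjusted p under 0.05). Without control replicate 2 it called 591. DESeq2 called 143, and edgeR called 91 without cells over 25% mitochondrial UMIs, 154 with equal cell numbers and 0 with no filter on low counts (1734 at an unadjusted p under 0.05). In non-cycling fibroblasts 1761 of 17241 genes (10.2%) changed, 729 upward (4.23%) and 1032 downward (5.99%), on more counts.

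Gene length moved with these changes. Over 7021 genes at 20 normalised CPM or more, the median span was 31.8 kb for all, 14.2 kb for those that rose and 170.4 kb for those that fell. Spearman's rho across genes between span and the knockdown fold change was -0.48. Between replicates of the same group it was -0.45 for control 2 against control 1 and -0.35 for knockdown 2 against knockdown 1. Genes are not independent replicates, and the part of span in single results was not tested.

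**Figure D4:**
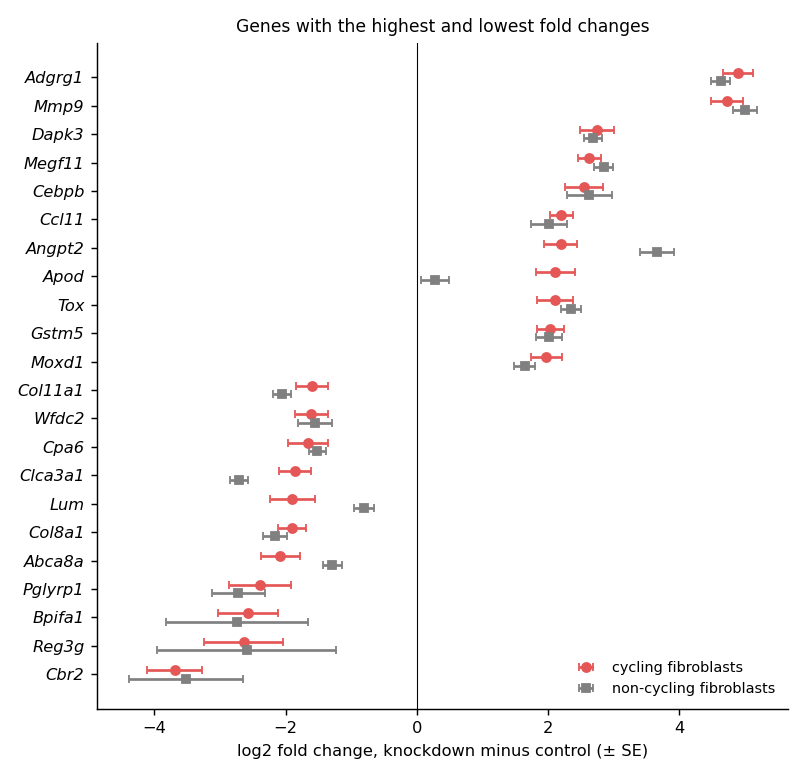
Log2 fold change, knockdown minus control, with its SE, for 22 of the 24 genes with the highest and lowest values, in cycling (red circles) and non-cycling (grey squares) fibroblasts. Pcp4 and Ltf are left out because a group is at or near 0 counts; Apod, at 2.11 against 0.28, and Angpt2, at 2.19 against 3.66, show the widest gaps among the risen genes.

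Among the 12 highest fold changes were a protease, receptors, a chemokine and transcription factors. Adgrg1, an adhesion G-protein-coupled receptor, was at 3.09 and 2.92 normalised CPM in the controls and 87.3 and 92.3 in the knockdowns (log2 fold change 4.89 ± 0.23, adjusted p = 4.28e-11). Mmp9, the gelatinase of matrix remodelling, went from 3.97 and 7.29 to 129.6 and 169.9 (4.73 ± 0.25, adjusted p = 2.08e-10). These groups lay far apart, and both genes also rose in non-cycling fibroblasts, at 4.63 ± 0.14 and 5.00 ± 0.19. Cebpb, a transcription factor of inflammatory and stress responses, was at 80.9, 53.7, 240.2 and 549 (2.55 ± 0.29, adjusted p = 2.65e-05), with knockdown library 2 the highest. Megf11, a transmembrane receptor gene, was at 31.3, 29.5, 194 and 183 (2.63 ± 0.18). The eosinophil-attracting chemokine Ccl11 was at 29.7, 34.7, 150.2 and 147 (2.20 ± 0.18, adjusted p = 2.32e-07). Angpt2, a ligand of the endothelial TIE2 receptor, rose by 2.19 ± 0.25, the lipocalin Apod by 2.11 ± 0.30, the nuclear factor Tox by 2.10 ± 0.28, the glutathione transferase Gstm5 by 2.04 ± 0.21 and the monooxygenase-like Moxd1 by 1.97 ± 0.23 on the log2 scale.

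Of these 12 genes, 9 were also higher in both knockdown than in both control libraries in AT2 cells (deposited cluster 9): Pcp4, Mmp9, Dapk3, Megf11, Cebpb, Ccl11, Angpt2, Tox and Gstm5. How many of all genes lie in this order in AT2 cells was not counted, so the 9 of 12 is a description only. Mmp9 read 1.83, 4.52, 24.5 and 14.6 CPM there and Cebpb 23.3, 12.7, 83.3 and 167. Pcp4, a calmodulin-binding protein gene, had 0 counts in both controls and 50 and 57 in the knockdowns, where it read 26.5 and 28.7 normalised CPM. Against a floor of 3 counts over the control group it was at least 124-fold higher. In AT2 cells it was at 0 and 0 CPM in the controls and 37.2 and 19.5 in the knockdowns. Dapk3, a death-associated kinase gene, was at 5.002, 4.08, 27.5 and 33.8 in cycling fibroblasts (2.75 ± 0.26, adjusted p = 3.33e-06) and at 5.48, 5.88, 34.2 and 38.5 CPM in those AT2 cells. The labels give the AT2 cells of both groups as wildtype, and the part of shared RNA between droplets in these rises was not tested.

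The 12 lowest fold changes held fibroblast genes and airway genes. On the fibroblast side, Col8a1, a short-chain collagen, was at 91.5 and 128 normalised CPM in the controls and 27.5 and 31.3 in the knockdowns (-1.90 ± 0.21, adjusted p = 2.57e-05). Col11a1, a fibril-nucleating collagen, was at 29.1, 33.7, 9.52 and 11.1 (-1.60 ± 0.25), and Lum, the collagen-binding proteoglycan lumican, at 17.9, 30.3, 8.46 and 4.54 (-1.90 ± 0.35). No control value overlapped a knockdown value for these 3 genes. Abca8a, a lipid transporter, fell by 2.08, Clca3a1 by 1.85 and the carboxypeptidase Cpa6 by 1.66 on the log2 scale.

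The airway and secretory genes that fell differed in how their level compared with AT2 cells. Bpifa1, a secreted airway protein, was at 59.4, 56.7, 0 and 19.2 normalised CPM in cycling fibroblasts (-2.57 ± 0.45, adjusted p = 0.00298), and at 68.1, 50.7, 0.183 and 18.9 CPM in AT2 cells. Reg3g, an antimicrobial lectin, was at 429, 240.1, 1.06 and 105 (-2.64 ± 0.61) and in AT2 cells at 465, 299, 0.549 and 106. Knockdown library 1 was near 0 for both genes in both cell types. Cbr2, a carbonyl reductase of club cells, fell by 3.69 and the peptidoglycan-binding Pglyrp1 by 2.38 on the log2 scale. The whey-acidic protein Wfdc2 fell by 1.61, from 311 and 195 to 60.3 and 105 normalised CPM, while AT2 cells read 1519, 1788, 1410.1 and 1964 CPM, higher in each library and with overlapping groups. Pglyrp1 was also higher in AT2 cells in each library. Ltf, lactoferrin, had 1 count in the knockdowns against 375 in the controls, a ratio of 108 with a 95% counting interval of 19.3 to 4276. Summed over 10 airway markers, cycling fibroblasts read 1089, 230.6, 2.02 and 197 CPM, which is 88.3%, 91.0%, 12.3% and 105% of the level in AT2 cells of the same library. Of 7 airway markers tested 4 fell (Bpifa1, Muc5b, Krt5 and Krt14) and 0 rose, beside 1.16% and 1.15% of all genes. The median of the 7 was -2.96, or -2.57 with Krt5 and Krt14, at 0 counts in the knockdowns, set at their bound. Krt5 was at least 9.31-fold and Krt14 at least 4.70-fold lower, and Muc5b had 3 counts against 175 (ratio 16.8, interval 5.65 to 82.2).

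AT2 markers moved the other way in the same droplets. Of 12 tested, 6 rose (Sftpc, Sftpb, Sftpa1, Slc34a2, Lyz2 and Cxcl15) and 0 fell, beside 1.15% and 1.16% of all genes. The median log2 fold change of the 12 was 1.03, against 0.0053 for all genes. Sftpc, surfactant protein C, was at 537, 539, 1427 and 712 normalised CPM (0.99 ± 0.26, adjusted p = 0.0486). The 12 markers together were at 789, 744, 1870 and 1048 CPM, or 1.05%, 0.729%, 2.05% and 0.939% of the AT2 cells' own level. In non-cycling fibroblasts the sum was 905, 975, 2531 and 1327 CPM. The part of free epithelial RNA in these changes was not tested. Among 8 immune markers 3 could be tested and 0 passed, with summed levels of 14.4, 11.04, 19.2 and 17.0 CPM. Endothelial markers summed to 6.84, 7.26, 9.09 and 20.6 CPM.

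Few of the cell cycle genes themselves passed the test inside the class. Of 237 tested genes of all cell cycle lists, 6 rose, 1 fell and 230 did not pass, with a median log2 fold change of 0.21, against a background of 1.15% rising and 1.16% falling. In the S phase list 3 of 42 rose and 0 fell (median 0.34), and in the G2/M phase list 0 of 52 changed (median 0.21). Mcm2, a subunit of the replicative helicase, rose from 24.7 and 33.8 to 44.4 and 63.03 normalised CPM (0.88 ± 0.21, adjusted p = 0.03004). Pcna, the sliding clamp of the polymerases, was at 77.7, 104, 141 and 172 (0.78 ± 0.19, adjusted p = 0.0317), and the flap endonuclease Fen1 at 24.3, 30.2, 41.8 and 50.4 (0.76 ± 0.20). The groups did not overlap for these 3 genes. The cohesin acetyltransferase Esco2 rose by 0.76 ± 0.20, the centromere protein Cenpm by 0.88 ± 0.21 and the CDK4/6 inhibitor Cdkn2d by 1.02 ± 0.25. Cdk6, the G1 kinase, fell from 55.5 and 44.8 to 24.3 and 32.8 (-0.81 ± 0.21, adjusted p = 0.0454). Of 13 alternatives, Pcna passed in 7, Mcm2 and Cdkn2d in 6, Cenpm and Cdk6 in 5, Fen1 in 4 and Esco2 in 3.

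None of the 4 class markers passed the test inside the class. Top2a, whose groups did not overlap, had a log2 fold change of 0.38 ± 0.20 (adjusted p = 0.376), Mki67 of 0.20 ± 0.18 (adjusted p = 0.633), Neil3 of 0.25 ± 0.17 (adjusted p = 0.509) and Cenpf of 0.06 ± 0.20 (adjusted p = 0.921). These genes helped to place cells in the class in every library, so their level inside it is partly fixed by that choice. Counts of the role lists stand beside 1.15% of all genes rising and 1.16% falling. Replication fork and licensing had 3 of 32 rising, condensin and cohesin 1 of 18 and the kinetochore 1 of 28. The spindle had 0 of 24, cytokinesis 0 of 11, mitotic kinases 0 of 24, DNA repair 0 of 20 and E2F and MuvB factors 0 of 17. Cyclins and CDKs had 1 of 13 falling (Cdk6), and CDK inhibitors with pocket proteins 1 of 9 rising (Cdkn2d). Nucleotide synthesis genes had 0 of 8 past the test at a median of 0.43, with Rrm2, a subunit of ribonucleotide reductase, at 42.4, 58.5, 71.9 and 92.8 (0.71 ± 0.20, adjusted p = 0.0646).

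Few genes of the Hippo pathway and of its targets passed the test. Of 23 Hippo pathway genes 2 fell and 0 rose (median -0.19), beside 1.16% and 1.15% of all genes: Amotl2, an angiomotin that binds YAP, from 69.3 and 58.6 to 33.3 and 41.3 normalised CPM (-0.77 ± 0.19, adjusted p = 0.0382), and Vgll3, a TEAD cofactor (-0.90 ± 0.22). Among 22 YAP/TAZ targets 3 fell and 1 rose, with a median of -0.32. Crim1, a transmembrane BMP regulator, was at 106, 101, 62.4 and 52.9 (-0.85 ± 0.18), and F3, tissue factor, at 75.3, 95.1, 50.3 and 46.9 (-0.81 ± 0.19); Amotl2 is on this list too. Ccn2, connective tissue growth factor, went against them, at 82.97 and 77.01 in the controls and 117 and 144 in the knockdowns (0.70 ± 0.18, adjusted p = 0.0371). Of 13 alternatives, these calls held in 8 for Crim1, 6 each for Amotl2, Vgll3 and F3 and 4 for Ccn2. Receptors for mitogens had 0 of 16 past the test, with a median of -0.28.

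Wnt4 was among the risen Wnt genes. Of 15 Wnt ligands and modulators 3 rose and 0 fell (median 0.44), beside 1.15% and 1.16% of all genes. Wnt4 (ENSMUSG00000036856, chromosome 4, 137277489 to 137299726, plus strand) was at 12.5 and 14.00 normalised CPM in control and 29.6 and 28.7 in knockdown cycling fibroblasts, a log2 fold change of 1.14 ± 0.22 (adjusted p = 0.00597). The groups did not overlap, and in each library the class stayed below its non-cycling fibroblasts, which read 34.9, 34.5, 77.3 and 95.6. The Wnt antagonist gene Dkk2 was at 21.8, 24.9, 57.1 and 112 (1.86 ± 0.24, adjusted p = 1.08e-04), highest in knockdown library 2, and its relative Dkk3 at 74.3, 83.1, 134 and 158 (0.89 ± 0.18).

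Genes of fibroblast identity changed in both directions, and their counts stand beside 1.15% of all genes rising and 1.16% falling. Of 17 alveolar fibroblast genes 3 fell (Slit2, Limch1 and Gpc3) and 1 rose, at a median of -0.21. Slit2, a secreted guidance ligand, was at 813, 772, 446 and 443 normalised CPM (-0.83 ± 0.20, adjusted p = 0.0302). Inmt, a methyltransferase, rose from 20.7 and 28.7 to 62.96 and 54.5 (1.24 ± 0.20). Of 12 adventitial fibroblast genes 3 rose and 0 fell (median 0.41): Ccl11 above, Ly6a (0.71 ± 0.18) and Cd34, which rests on 3 and 4 counts in the controls against 13 and 19. Of 17 myofibroblast and contractile genes 1 fell and 0 rose (median -0.23), and that was the intermediate filament gene Des, at 53.1, 74.2, 19.6 and 31.3 (-1.32 ± 0.23). Among 24 matrix genes 3 fell and 0 rose (median -0.062), namely Col8a1, Col11a1 and Lum. Of 18 inflammatory genes 2 rose and 0 fell (median 0.21), Ccl11 and the alarmin Il33, at 44.7, 45.9, 87.3 and 92.3 (0.99 ± 0.17). Of 18 p53 and senescence genes 1 rose, Igfbp7, at 589.6, 941, 2309 and 1923 (1.47 ± 0.25, adjusted p = 0.00222). Of 9 fibroblast markers 1 fell (Lum), of 6 AT1 markers 1 (Cav1, by 1.81 on the log2 scale), and of 8 epithelial and 4 mesothelial markers 1 each, in both cases Krt19 (by 0.82); none of these rose.

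Whether the knockdown acted differently on cycling and non-cycling fibroblasts was tested as an interaction within library. Of 16090 genes 297 (1.85%) had a different effect at an adjusted p under 0.05. In 258 (1.60%) the fold change was higher in cycling fibroblasts and in 39 (0.242%) it was lower. Of the 287 genes changed in the class, 31 were among the 297. Without control replicate 1, 149 differed, without control replicate 2, 176, and without knockdown replicate 2, 194. With the non-cycling side limited to the class named Fibroblasts, 196 differed, 100 of them shared with the 297.

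For cell cycle genes this comparison is a description, because the border of the class was drawn on them and partly fixes their level inside it. They made up 120 of the 258, and 0 of the 39. Among the 258, 159 were at least 2-fold higher in the class in both controls. In the S phase list 24 of 42 genes were higher by this test and 0 lower (median difference 0.80). In the G2/M phase list 39 of 52 were higher and 0 lower (median 0.81). Of all genes 1.60% were higher and 0.242% lower, with a median of 0.0079. Median log2 fold changes of the S and G2/M phase lists were 0.34 and 0.21 in the class, against -0.35 and -0.60 in non-cycling fibroblasts. There 9 of 42 S phase and 23 of 52 G2/M genes fell and 0 rose, beside 5.99% of all genes falling and 4.23% rising. That fit rests on more counts, so its number of calls cannot be set against that of the class. The kinesin Kif2c was at 39.9, 49.6, 47.1 and 66.1 normalised CPM in the class and 3.78, 4.496, 1.47 and 1.54 outside it (difference 1.82 ± 0.21). Differences were 1.71 ± 0.23 for Neil3, 1.62 ± 0.26 for the spindle gene Dlgap5, 1.59 ± 0.13 for Mki67, 1.57 ± 0.11 for Top2a, 1.55 ± 0.15 for Cenpf and 1.57 ± 0.33 for the mitotic phosphatase Cdc25c. Fewer non-cycling fibroblasts of the knockdown libraries had a Mki67 or Top2a UMI, as given above. The part of the class border in the difference was not tested.

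**Figure D5:**
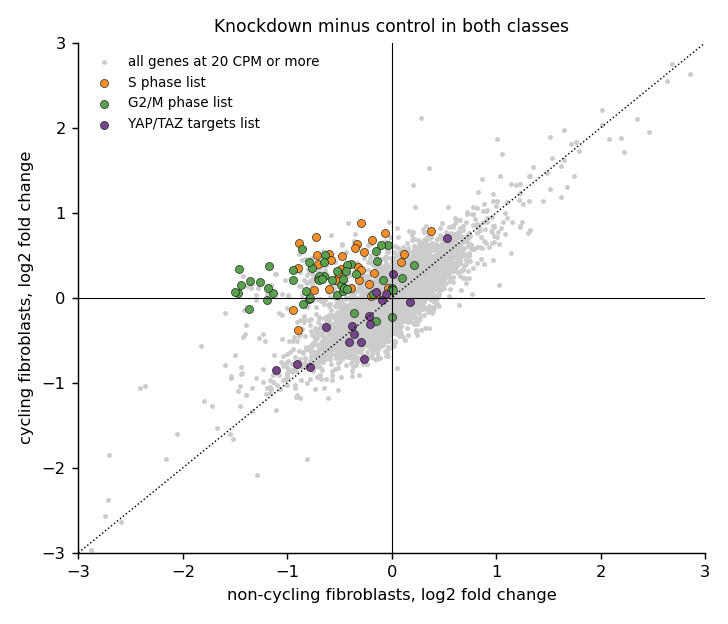
Each point is a gene at 20 normalised CPM or more in cycling fibroblasts, with its log2 fold change, knockdown minus control, in non-cycling (horizontal axis) and cycling (vertical axis) fibroblasts; the dotted line marks equal effects. S phase (orange) and G2/M phase (green) genes lie mostly above the line, with medians of 0.34 and 0.21 in the class against -0.35 and -0.60 outside it, while YAP/TAZ targets (purple) scatter around it.

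Genes outside the cycle differed as well. Apod, a lipocalin, was at 6.18, 4.81, 30.2 and 17.6 normalised CPM in the class against 16.3, 11.2, 19.3 and 14.04 outside it (difference 1.87 ± 0.24, adjusted p = 4.42e-07), and it passed in 14 of 14 alternatives. Brinp3 fell outside the class, from 31.3 and 21.7 to 3.39 and 5.83, and varied within it, at 8.09, 2.04, 17.99 and 4.03 (difference 3.68 ± 0.47). Within the class, replicate 1 was the higher in both groups for this gene. Angpt2 rose in both classes, but less in cycling fibroblasts, at 6.03, 10.1, 32.3 and 41.3 against 5.24, 9.05, 77.9 and 103 (difference -1.44 ± 0.20, adjusted p = 1.86e-06). Enpp1, which makes extracellular pyrophosphate, rose outside the class from 43.1 and 44.9 to 87.4 and 91.98 and was at 35.01, 38.8, 43.4 and 38.3 within it (-0.85 ± 0.14). The lung mesenchyme factor gene Tbx4 was at 39.9, 36.8, 33.3 and 45.4 in the class and 31.7, 29.5, 52.9 and 51.3 outside it (-0.69 ± 0.15). Other genes with lower effects in the class were Zmat4 (-1.23 ± 0.31), the heparan sulfotransferase gene Hs6st3 (-1.20 ± 0.25), Lum (-1.06 ± 0.29, lost in 10 of 14 alternatives) and Nwd2 (-0.85 ± 0.14). Hs6st3 changed sign, to 0.32, when the non-cycling side was the class named Fibroblasts.

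Of 19 inflammatory genes, 5 had a higher effect in cycling than in non-cycling fibroblasts and 1 a lower one (1.60% and 0.242% of all genes), with a median difference of 0.20. The makeup of the non-cycling side differed as well: Inflammatory Fibroblasts-1 held 1128 and 1203 control and 222 and 207 knockdown cells, and Inflammatory Fibroblasts-2 held 1036 and 1049 against 175 and 112. The part of this makeup in the differences was not tested. The cytokine Il6 was at 46.9, 55.7, 67.7 and 57.5 normalised CPM in the class and at 74.7, 91.5, 47.8 and 49.9 outside it (difference 1.08 ± 0.13, adjusted p = 6.81e-08). Ccl2, the monocyte chemokine, was at 152, 267, 207 and 272 against 103, 155, 92.5 and 97.5 (0.68 ± 0.09), with control 1 the lowest within the class. Differences were 0.77 ± 0.10 for Ccl7, 0.53 ± 0.11 for the neutrophil chemokine Cxcl1 and 0.43 ± 0.12 for the macrophage growth factor Csf1. Csf1 and Cxcl1 changed sign against the class named Fibroblasts alone, at -0.11 and -0.18, and Ccl7 and Csf1 did so without cells over 25% mitochondrial UMIs, at -0.12 and -0.13. Cxcl14 went the other way, at 599.7, 936, 1002 and 1218 in the class and 756, 1085, 1693 and 2375 outside it (-0.56 ± 0.08). For Dkk2, difference of log2 fold changes, cycling minus non-cycling, was 0.89 ± 0.17 (adjusted p = 5.25e-04), but 0.26 without knockdown replicate 2 and 0.14 against the class named Fibroblasts alone, and neither passed. The growth factor Fgf10 had a lower effect in the class (-0.39 ± 0.10, adjusted p = 0.0342), a call that was lost in 10 of 14 alternatives. For Wnt4 the difference was -0.15 ± 0.18 (adjusted p = 0.866).

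Beside the cycling AT2 cells of the same cultures, cycling fibroblasts differed in the levels of the D cyclins. Ccnd1 was at 30.8, 29.8, 21.2 and 26.8 CPM in cycling fibroblasts and 164, 199, 160.2 and 216 in cycling AT2 cells (log2 ratio -2.74). Ccnd2 was at 162, 156, 90.9 and 114 against 50.2, 53.5, 18.4 and 20.3 (1.86), and Ccnd3 at 102, 95.7, 93.4 and 106 against 79.6, 48.3, 63.5 and 60.98 (0.65). No fibroblast value overlapped an AT2 value for these 3 cyclins. Neil3 was higher in cycling fibroblasts, at 87.2, 76.9, 89.4 and 104 against 41.2, 63.95, 59.6 and 42.6 CPM, and so was the S phase cyclin Ccne2 (1.15). The mitotic activator Cdc20 (-1.16) and the RhoA activator Ect2 (-1.43) were higher in cycling AT2 cells. Both classes were clusters, so these levels are given without a test.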

How the data were processed

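Mouse alveolosphere cells were profiled with the 10x Genomics Multiome kit, per the labels' protocols. The submitters' processing notes name the build as GRCm38, or mm10. Aligner and counting tool: not given in the sources used here. As deposited, the matrix holds UMI counts of 32285 genes in 45936 cells, and its sums equal the UMI counts the authors list per cell. Cell classes, ATAC fragment counts, the percent of mitochondrial UMIs and the doublet enrichment ratio are the authors' deposited values. Another 49 deposited columns were not used. No doublet caller was run.

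For each library, the counts of a class were added up, and genes passing edgeR's expression filter were tested with edgeR 4.0.16 (TMM, quasi-likelihood test, Benjamini-Hochberg adjustment, threshold 0.05) in R 4.3.3. Cycling fibroblasts of the 4 libraries formed 1 fit. The difference of knockdown effects was the interaction of class and group over 8 sums with a term for library. Shares were compared with exact permutation tests over libraries. On simulated data the first fit recovered 60% of 2-fold and 97% of 4-fold changes over 12315 genes, and the interaction 19% and 81% over 16122. The simulation gave all genes the same assumed spread and changed only genes above a limit on mean counts. Recovery in the real data may therefore differ.

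The members and the gene lists were chosen with earlier results of these data known. Genes named were the 12 highest and 12 lowest significant fold changes at 20 normalised CPM or more in the higher group, up to 8 in each direction for the difference, list members that passed, the 12 highest and lowest ratios between classes at 50 CPM or more outside the cycle lists, the 4 class markers, Yap1, Wwtr1 and Wnt4. Some genes that these rules name are not reported here. Other list members were chosen after their values were seen. DESeq2 1.42.0, limma 3.58.1 voom, other scaling, no filter, a replicate block, left-out libraries and other cell sets were alternatives. Counting intervals are exact 95% intervals and cover counting error only.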

Additional observations from a re-analysis of the deposited data

Results flagged for a closer look

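The knockdown effect differed between cycling and non-cycling fibroblasts for 297 genes by edgeR's interaction test at an adjusted p under 0.05. Values below are differences of log2 fold changes, cycling minus non-cycling. The effect was higher in cycling fibroblasts for Brinp3 (3.68), Apod (1.87), Kif2c (1.82), Neil3 (1.71), Dlgap5 (1.62), Mki67 (1.59), Top2a (1.57) and Cdc25c (1.57). It was lower for Angpt2 (-1.44), Zmat4 (-1.23), Hs6st3 (-1.20), Lum (-1.06), Enpp1 (-0.85), Nwd2 (-0.85) and Tbx4 (-0.69). Kif2c, Neil3, Dlgap5, Mki67, Top2a and Cdc25c are cell cycle genes, on which the border of the class was drawn. Their values are a description and no test of a different effect, and fewer non-cycling cells of the knockdown libraries had a Mki67 or Top2a UMI (3.11% and 2.58% against 5.99% and 5.76% after thinning). The direction for Hs6st3 depended on which non-cycling cells were used.

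The share of cycling cells moved in opposite directions in the compartments of the same cultures: -5.65 percentage points among fibroblasts and 5.29 among epithelial cells, with each knockdown library on its own side of both controls. The difference between these changes was not tested.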

How the results depend on the processing

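With 2 libraries a group, no share can pass an exact test, and depth in the knockdown class limits genes of low level. The cycling fibroblast share of fibroblasts differed by -4.81 percentage points over all cells, -4.81 without cells over 25% mitochondrial UMIs and -6.18 to -5.12 when 1 library was left out. The S phase share of 1.35 percentage points ranged from 0.283 to 2.41 when 1 library was left out, and its other alternatives moved it by less than the spread between libraries.

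In cycling fibroblasts DESeq2 called 143 genes where edgeR called 287, without cells over 25% mitochondrial UMIs edgeR called 91 (41 cells were left in knockdown replicate 1), and with equal cell numbers 154. With no filter on low counts it called 0 (1734 at an unadjusted p under 0.05, and 21451 genes tested). Leaving out 1 library gave 0 to 591, where the lone library is assumed to vary like the others, and 57 and 59 of the named values no longer passed without knockdown replicate 1 and 2. For the difference of effects, where 297 genes were called, DESeq2 called 118. The mitochondrial limit gave 149, equal cell numbers 125, Fibroblasts as the only non-cycling class 196, cells on which both annotations agree 187, and leaving out 1 library 149 to 365. The cause of these shifts was not tested. The limits on doublets and on both annotations, and the second annotation, were chosen after seeing the data.

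With a replicate block 1379 genes were called in cycling fibroblasts, the 287 among them, and 350 for the difference. Yap1 and Wwtr1 also passed in cycling fibroblasts with this block. The labels share only numbers: replicate 1 minus replicate 2 correlated between control and knockdown at a Pearson's r of 0.279 and a Spearman's rho of 0.378 across 6694 genes, with 2 pairs.

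Some single values changed sign. For Cenpf, log2 fold change in cycling fibroblasts was -0.081 with equal cell numbers and ranged from -0.21 to 0.30 when 1 library was left out, being below 0 without control replicate 1 (-0.0895) and knockdown replicate 2. Differences against Fibroblasts as the only non-cycling class were 0.32 for Hs6st3, 0.17 for Wnt4, -0.11 for Csf1, -0.18 for Cxcl1, -0.46 for Kif14 and 0.031 for Wwtr1. Under the mitochondrial limit Ccl7 was at -0.12 and Csf1 at -0.13. Leaving out 1 library gave differences from -0.30 to 0.0059 for Wnt4, -0.18 to 0.11 for Wwtr1 and -0.012 to 0.16 for Yap1. Wwtr1 was at 0.00069 with no filter on low counts, 0.018 with equal cell numbers and 0.0027 where both annotations agree.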

Other observations

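A second deposited annotation of the same cells splits cycling fibroblasts further. It calls 2793 cells Cycling fibroblasts, 2495 of them (98.1% of the 2543 described above) in the same class. It also names 231 Cycling Inflammatory fibroblasts, 119 and 100 in the control and 6 and 6 in the knockdown libraries, of which 226 lie in the class Inflammatory Fibroblasts-2 of the main annotation and 2 among the cycling fibroblasts. That class had the highest thinned Mki67 or Top2a share among the classes of non-cycling fibroblasts in the controls, at 10.1% and 12.5%, against 2.29% and 8.04% in the knockdowns. The cells are therefore counted as non-cycling in the comparisons above.

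Most cells with several cycle markers lay in the described class. Of fibroblasts with a UMI of 2 or more of the 4 markers after thinning to 2000 UMIs, 85.7%, 85.8%, 93.7% and 93.1% were in it. Of those with a UMI of Mki67 or Top2a it held 51.1%, 52.6%, 39.6% and 51.7%.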
